A study of Mus musculus with 9 samples.

Results

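Complement, coagulation and acute phase genes encode a set of defence and clotting proteins that circulate in plasma or sit on cell surfaces. The list held 40 genes, named by function and not by any measured value, and 38 of them had a probe set in the kidney arrays, out of 19938 genes measured. C3 and Cfd were not analysed here, and C1s was matched as C1s1. The brightest probe set stood for each gene. The arrays held whole kidney RNA of 9 female wild type mice, 5 aged 96 weeks and 4 aged 14 weeks, with 1 array per mouse. All mice were of a mixed FVB/C57BL6 background, and the methods state that they were perfused with cold buffer before the kidneys were taken. Expression is given as log2 values after the robust multi-array average, so that a difference of 1 is a doubling, and every difference is 96 weeks minus 14 weeks. Differences were tested with limma over all genes, and a gene passed at a Benjamini-Hochberg adjusted p under 0.05.

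Complement is a cascade of proteases and binding proteins that tags cells and microbes for removal. It starts through C1 on antibody, through lectins, or through the alternative pathway with factor B, and it is held back by regulators such as Cd55 and the C1 inhibitor. Clotting ends in thrombin, which turns fibrinogen into fibrin, and plasmin then dissolves the fibrin. The liver is the main source of most of these proteins in plasma, and kidney tubules, endothelium and macrophages make some of them locally. In whole kidney RNA, more cells of a type and more RNA per cell cannot be told apart.

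C1qc, Fgg, Fgb and Cfi had the largest positive differences among the 38 members, and Cd55 had the largest negative one, but of these only Fgb and Cd55 passed. Of the 38 members, 4 passed (10.5%, against 6.72% of all genes), of which 3 rose and 1 fell. Fgb, Cfb and Serping1 were the genes that rose (7.89% of members, against 4.31% of all genes) and Cd55 was the one that fell (2.63%, against 2.40% of all genes). After a repeated quantile normalization the share over all genes was 2.43% higher and 2.53% lower. At the study's threshold for candidates, at least 1.5-fold with an unadjusted p under 0.05, 6 members differed (15.8%, against 1.6% of all genes), with 5 higher (13.2%, against 1.28% of all genes) and 1 lower (2.63%, against 0.321%). The 5 were C1qb, C1qc, C1s1, Fgb and Fgg. At an unadjusted p under 0.05 alone, 13 members were higher (34.2%, against 13.3% of all genes) and 1 was lower (2.63%, against 15.3%). In 8 members every kidney at 96 weeks lay above every kidney at 14 weeks (21.1%, against 7.49% of all genes), and in 1 member every kidney lay below (2.63%, against 5.79%). The difference was positive for 29 members (76.3%, against 43.4% of all genes), with a median of 0.21 over the members and -0.03 over all genes. The members overlap in cell source and pathway, so these shares describe the list and were not tested.

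**Figure D1:**
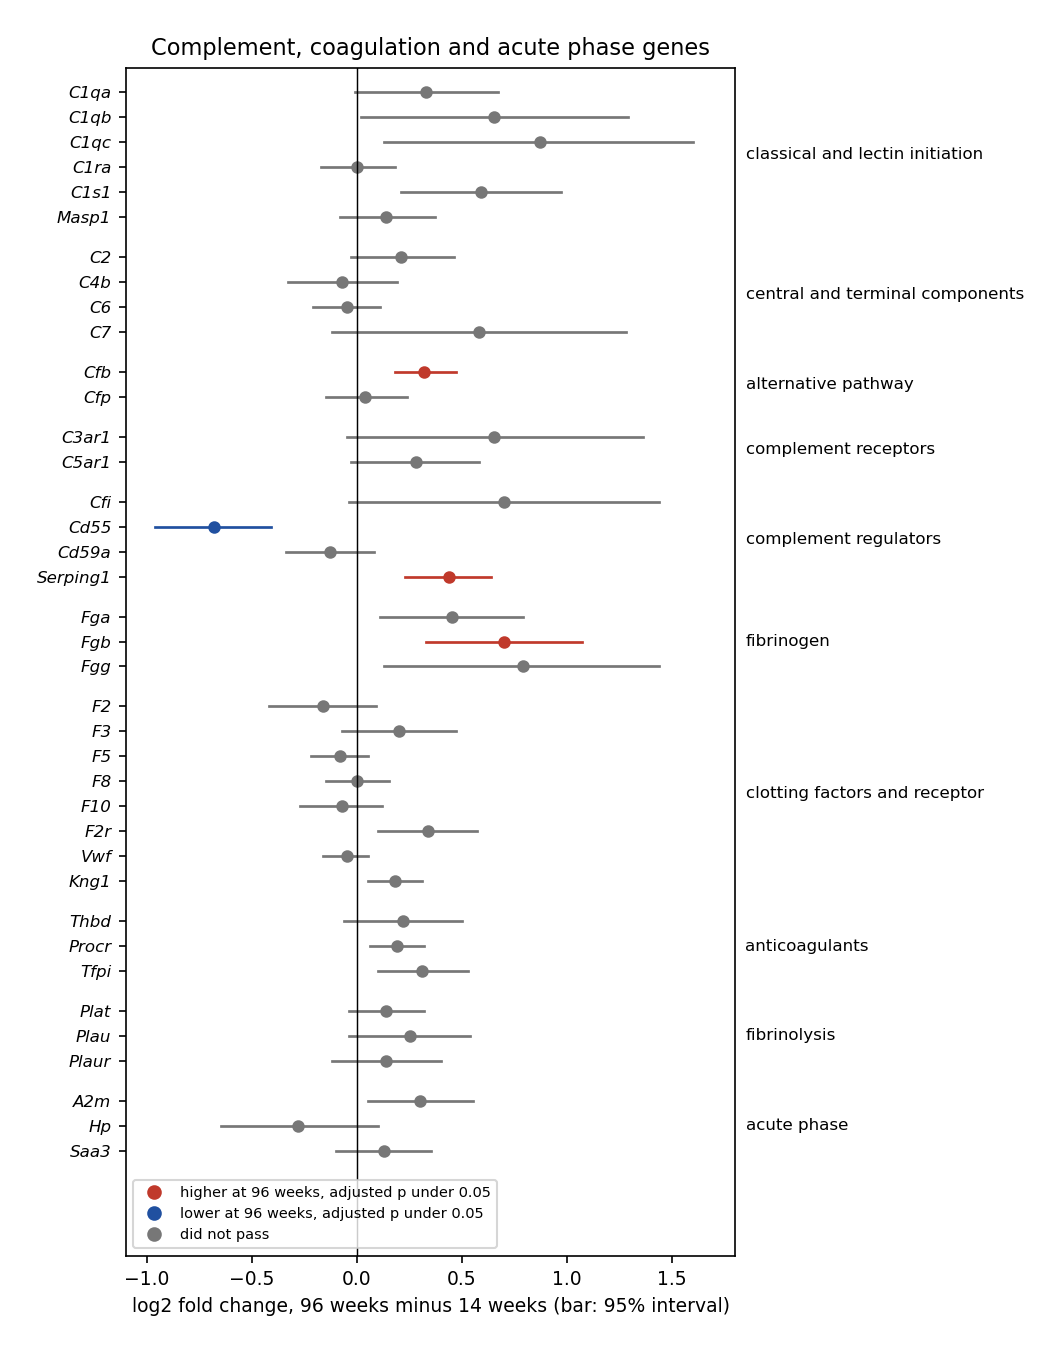
Log2 fold change (96 weeks minus 14 weeks) of the 38 members, grouped by role, with the 95% interval from limma as a bar. Red points rose (Cfb, Serping1, Fgb), the blue point fell (Cd55) and grey points did not pass at an adjusted p under 0.05.

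Fibrinogen is a hexamer of paired alpha, beta and gamma chains, encoded by Fga, Fgb and Fgg, which lie next to each other on mouse chromosome 3. Their promoter windows (250 bases before to 50 after the start, RefSeq, GRCm38.p6) are printed because fibrinogen had the highest median log2 fold change of the 10 roles on the list (0.70). Capitals mark letters of the acute phase and liver factor motifs TTCNNNGAA (STAT), TTGCNNAA (C/EBP) and GTTAAT (HNF1 core), on either strand.
Fga, chr3:83025903-83026202, + strand: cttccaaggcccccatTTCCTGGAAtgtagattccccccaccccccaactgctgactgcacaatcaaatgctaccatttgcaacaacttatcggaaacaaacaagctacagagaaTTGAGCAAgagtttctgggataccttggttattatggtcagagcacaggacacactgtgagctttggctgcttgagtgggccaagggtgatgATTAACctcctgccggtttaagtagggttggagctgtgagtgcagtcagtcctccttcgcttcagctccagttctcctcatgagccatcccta
Fgb, chr3:83049814-83050113, - strand: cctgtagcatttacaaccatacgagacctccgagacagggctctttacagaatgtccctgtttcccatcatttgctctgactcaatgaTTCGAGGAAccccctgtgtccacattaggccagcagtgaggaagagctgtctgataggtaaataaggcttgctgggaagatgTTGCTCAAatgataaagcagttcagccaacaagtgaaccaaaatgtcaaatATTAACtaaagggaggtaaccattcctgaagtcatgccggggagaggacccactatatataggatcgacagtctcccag
Fgg, chr3:83007474-83007773, + strand: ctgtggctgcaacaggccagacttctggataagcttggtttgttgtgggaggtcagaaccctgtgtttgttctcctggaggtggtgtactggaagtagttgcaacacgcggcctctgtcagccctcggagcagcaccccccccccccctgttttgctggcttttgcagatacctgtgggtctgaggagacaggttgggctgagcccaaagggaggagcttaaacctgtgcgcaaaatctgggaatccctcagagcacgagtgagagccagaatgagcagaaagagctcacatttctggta
Fga held 1 match to each of the 3 motifs and so did Fgb, with the HNF1 core at 43 and 29 bases before the start. Fgg held none of these letters in this window. Over all 32851 promoter windows of the table, 8.30% held the STAT letters, 10.8% the C/EBP letters and 7.10% the HNF1 core. Among the 24 members with a window, 16.7%, 29.2% and 29.2% held them. A match is a description of letters and not a bound site.

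Fgb, the beta chain, rose at 96 weeks. Its log2 expression was 6.41, 6.90, 7.31, 6.54 and 6.56 in the 96 week old kidneys, against 6.08, 6.08, 5.83 and 6.19 in the 14 week old kidneys. Every 96 week value exceeded every 14 week value, with replicate 3 highest. The log2 fold change was 0.70 (SE 0.168, limma adjusted p = 0.037), or 1.63-fold. Fgb no longer passed when any 1 of the 4 young kidneys was left out, or replicate 2 or 5 at 96 weeks, and it was under 1.5-fold without replicate 3 at 96 weeks (0.56). Fgg, the gamma chain, had values of 8.06, 8.31, 9.54, 7.91 and 7.99 at 96 weeks, against 7.55, 7.73, 7.30 and 7.72 at 14 weeks. The groups did not overlap here either, but replicate 3 stood far above the next old kidney. The log2 fold change of Fgg was 0.79 (SE 0.294, limma adjusted p = 0.12). Without replicate 3 at 96 weeks it was 0.49 (limma adjusted p = 0.042), so that the smaller difference passed, though it no longer met the 1.5-fold threshold. Fgg also did not meet it without replicate 3 at 14 weeks, or with the methods' t-test (unadjusted p = 0.061). Fga, the alpha chain, had values of 6.60, 7.06, 7.39, 6.71 and 7.07 at 96 weeks, against 6.65, 6.54, 6.25 and 6.64 at 14 weeks. In Fga 4 of 5 old kidneys lay above all young ones. Its log2 fold change was 0.45 (SE 0.153, limma adjusted p = 0.099). By an exact permutation test over the 9 arrays, two-sided, whose smallest possible p is 0.016, p was 0.016 for Fgb, 0.016 for Fgg and 0.048 for Fga. By their brightest probe sets, all 3 chains had their highest value in replicate 3 at 96 weeks and their lowest in replicate 3 at 14 weeks. A second, dimmer probe set of Fga gave 5.08 to 5.95 at 96 weeks and 5.35 to 5.72 at 14 weeks, which overlapped. That probe set was highest in replicate 5 and lowest in replicate 1, both at 96 weeks. With the mean over probe sets the log2 fold change of Fga was 0.25 (limma adjusted p = 0.27).

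**Figure D2:**
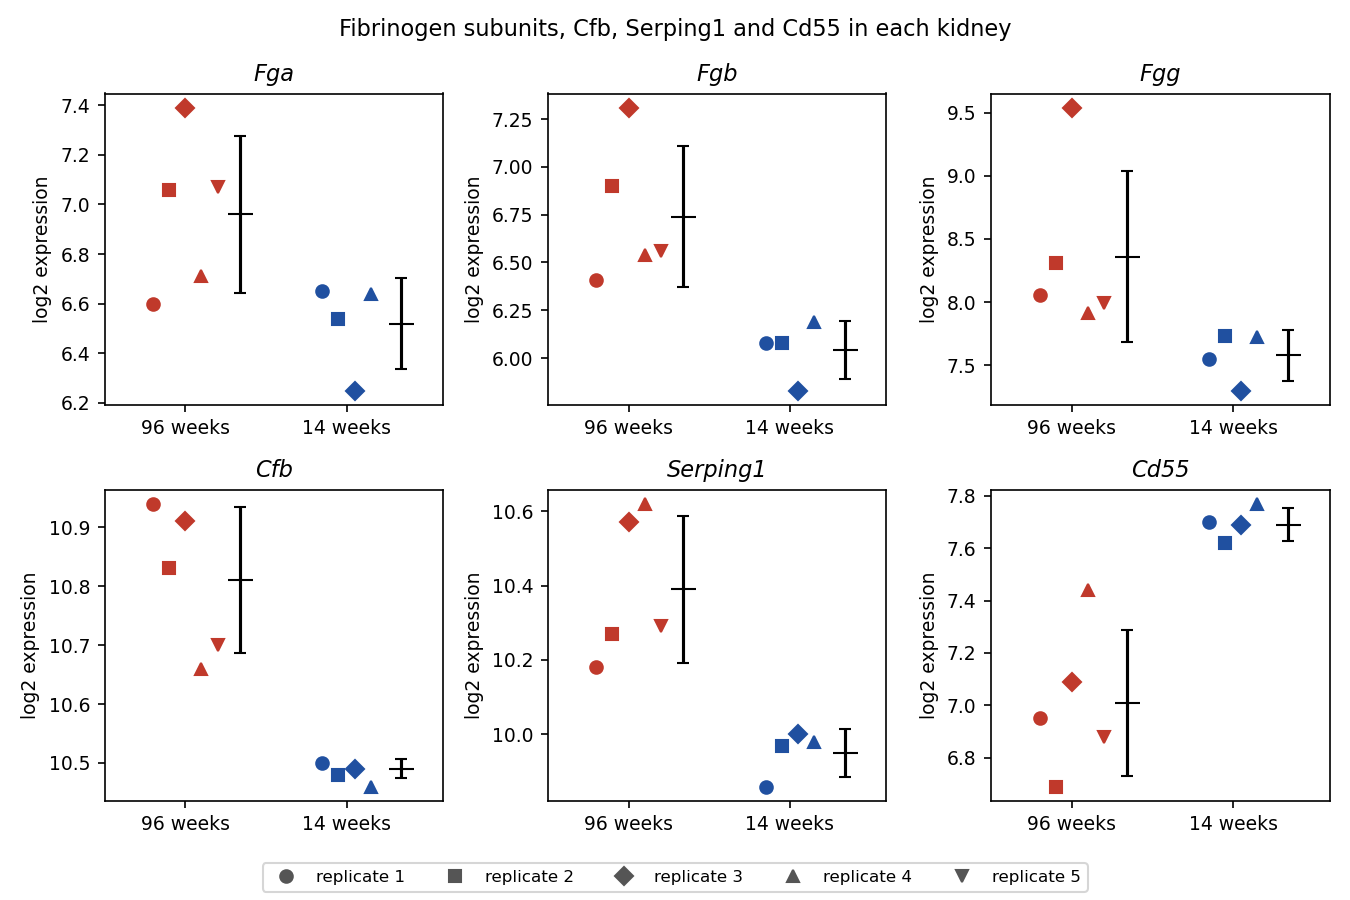
Log2 expression of Fga, Fgb, Fgg, Cfb, Serping1 and Cd55 in each kidney (5 at 96 weeks, 4 at 14 weeks), with the mean and 1 SD beside the points. Old kidneys lie above young ones in Fgb, Fgg, Cfb and Serping1 and below them in Cd55, while the lowest old value of Fga (6.60) falls among the young values.

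Of 8 hepatocyte markers 0 passed. The mean log2 level of the 8 hepatocyte markers was 5.12 to 5.40 in the 96 week old kidneys and 5.25 to 5.30 in the 14 week old kidneys. Most were dim, but 3 of them, Apoa2, Fgl1 and Alb, lay above the median gene. Apoa2, an apolipoprotein, averaged 7.45 at 96 weeks and 7.34 at 14 weeks. Fgl1, a liver gene of the fibrinogen family, averaged 6.82 at 96 weeks and 7.01 at 14 weeks, and albumin (Alb) averaged 6.71 at 96 weeks and 6.69 at 14 weeks. In replicate 3 at 96 weeks, the highest for fibrinogen, the hepatocyte markers stood at -0.13 around their mean over all arrays. Markers of injured tubules were also highest in replicate 3 at 96 weeks, and so were macrophage markers (0.96 above their mean over all arrays). There the mean of the 5 injured tubule markers was 1.68 above their mean over all arrays, against -0.11 to 0.43 in the other old kidneys and -0.50 to -0.43 in the young ones. The fibrinogen mean was 1.01 above its own in replicate 3, against -0.05 to 0.35 in the other old kidneys and -0.61 to -0.22 in the young ones. Among the other old kidneys the order differed. Replicate 2 was the highest of them for fibrinogen (0.35) and the lowest for injured tubule markers (-0.11). Replicate 4 was the highest of them for injured tubule markers (0.43), with fibrinogen at -0.02. Of the injured tubule markers, Havcr1 (9.47), Lcn2 (9.68), Vcam1 (9.27) and Krt20 (5.94) were highest in replicate 3. Sox9 was 6.62 in replicates 3, 4 and 5 at 96 weeks alike. The log2 fold changes were 1.02 for Vcam1, 0.25 for Krt20 and -0.08 for Sox9 (limma adjusted p = 0.12, 0.48 and 0.31). The ages did not overlap in Havcr1 or in Lcn2, with log2 fold changes of 1.48 and 1.58 (limma unadjusted p = 0.022 and 0.0088). Both thus met the 1.5-fold threshold, but neither passed over all 9 arrays (limma adjusted p = 0.12 and 0.079). The paper reports both as raised in old kidneys, by array and by qPCR, and Lcn2 also by in situ hybridization and immunoblot. Whether injured tubules account for the fibrinogen values was not tested.

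C1 is the starter of the classical pathway, built from the recognition protein C1q and the proteases C1r and C1s. The C1q chains are encoded by C1qa, C1qb and C1qc, neighbours on mouse chromosome 4, and macrophages are their main source. Windows of C1qb and C1qc (RefSeq, GRCm38.p6) are shown because C1qc had the highest log2 fold change of all members and C1qb followed the same kidneys, with the PU.1 core GAGGAA, a myeloid factor motif, in capitals on either strand.
C1qb, chr4:136886151-136886450, - strand: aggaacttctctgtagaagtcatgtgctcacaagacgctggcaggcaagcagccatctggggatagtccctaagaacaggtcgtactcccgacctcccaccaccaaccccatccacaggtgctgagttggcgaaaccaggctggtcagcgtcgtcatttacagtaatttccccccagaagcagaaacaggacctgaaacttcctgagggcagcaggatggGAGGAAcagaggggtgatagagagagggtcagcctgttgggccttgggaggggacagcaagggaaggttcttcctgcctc
C1qc, chr4:136892865-136893164, - strand: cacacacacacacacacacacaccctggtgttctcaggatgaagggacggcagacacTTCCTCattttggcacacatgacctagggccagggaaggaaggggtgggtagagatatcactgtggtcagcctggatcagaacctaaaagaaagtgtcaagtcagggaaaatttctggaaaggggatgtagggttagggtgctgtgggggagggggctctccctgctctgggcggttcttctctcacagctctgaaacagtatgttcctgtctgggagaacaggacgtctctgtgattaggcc
Each window held 1 match. The letters are common, with 28.3% of all promoter windows and 33.3% of the 24 members having at least 1. Also searched on both strands were GGGANTTCC (NF-kB), found in 0 of 24 members and in 1.68% of all windows, and the interferon response element core, found in 8.33% of members and in 3.44% of all windows. In Fgb a PU.1 core lay inside the STAT letters.

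C1qc had values of 7.79, 7.12, 8.35, 8.85 and 7.13 at 96 weeks, against 6.97, 7.32, 6.92 and 6.71 at 14 weeks. Replicates 1, 3 and 4 lay above all young kidneys and replicates 2 and 5 lay among them. Its log2 fold change of 0.87 was the highest of all members, with a standard error of 0.333 and a limma adjusted p of 0.13. C1qb had values of 6.94, 6.18, 7.42, 7.82 and 6.57 at 96 weeks, against 6.47, 6.05, 6.37 and 6.45 at 14 weeks. Only replicate 2 lay inside the young range. The log2 fold change of C1qb was 0.65 (SE 0.286, limma adjusted p = 0.17). C1qa had values of 6.28, 6.30, 6.58, 7.04 and 6.22 at 96 weeks, against 6.18, 6.26, 6.03 and 6.15 at 14 weeks. Replicate 5 lay inside the young range and replicate 4 was highest. C1qa had a log2 fold change of 0.33 (SE 0.152, limma adjusted p = 0.18). In exact two-sided permutation tests p was 0.032 for C1qa, 0.11 for C1qb and 0.063 for C1qc. C1qc no longer met the 1.5-fold threshold with an unadjusted p under 0.05 without replicate 3 at 96 weeks or without replicates 1, 3 or 4 at 14 weeks. C1qb no longer met it without replicates 1, 3 or 4 at 96 weeks or when any 1 of the 4 young kidneys was left out, or with array weights. Neither met it with the methods' t-test.

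The protease C1s1 separated the ages more cleanly than the C1q chains. Its values were 6.90, 7.22, 7.71, 7.73 and 6.99 at 96 weeks, against 6.63, 6.67, 6.77 and 6.81 at 14 weeks. The lowest old kidney exceeded the highest young one, and the log2 fold change was 0.59 (SE 0.173, limma adjusted p = 0.068, permutation p = 0.016 by the exact two-sided test). Without replicate 1 at 96 weeks it passed (0.69, limma adjusted p = 0.048), and it no longer met the 1.5-fold threshold without replicates 3 or 4 at 96 weeks or replicates 1 or 2 at 14 weeks. It also fell short of 1.5-fold with array weights (0.54), after repeated quantile normalization (0.56) and after cyclic loess (0.57). Its near copy C1s2 had a log2 fold change of 0.39 (limma adjusted p = 0.056), and probes of the 2 genes may share signal. C1ra, the partner protease, had 5.83 ± 0.158 at 96 weeks (SD, n = 5) and 5.83 ± 0.061 at 14 weeks (SD, n = 4), with a 95% interval of the difference of -0.17 to 0.18. C1ra also has a near copy, C1rb, which had no probe set with exactly 1 gene symbol. Masp1, which starts the lectin pathway, had a log2 fold change of 0.14 (95% interval -0.08 to 0.37).

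**Figure D3:**
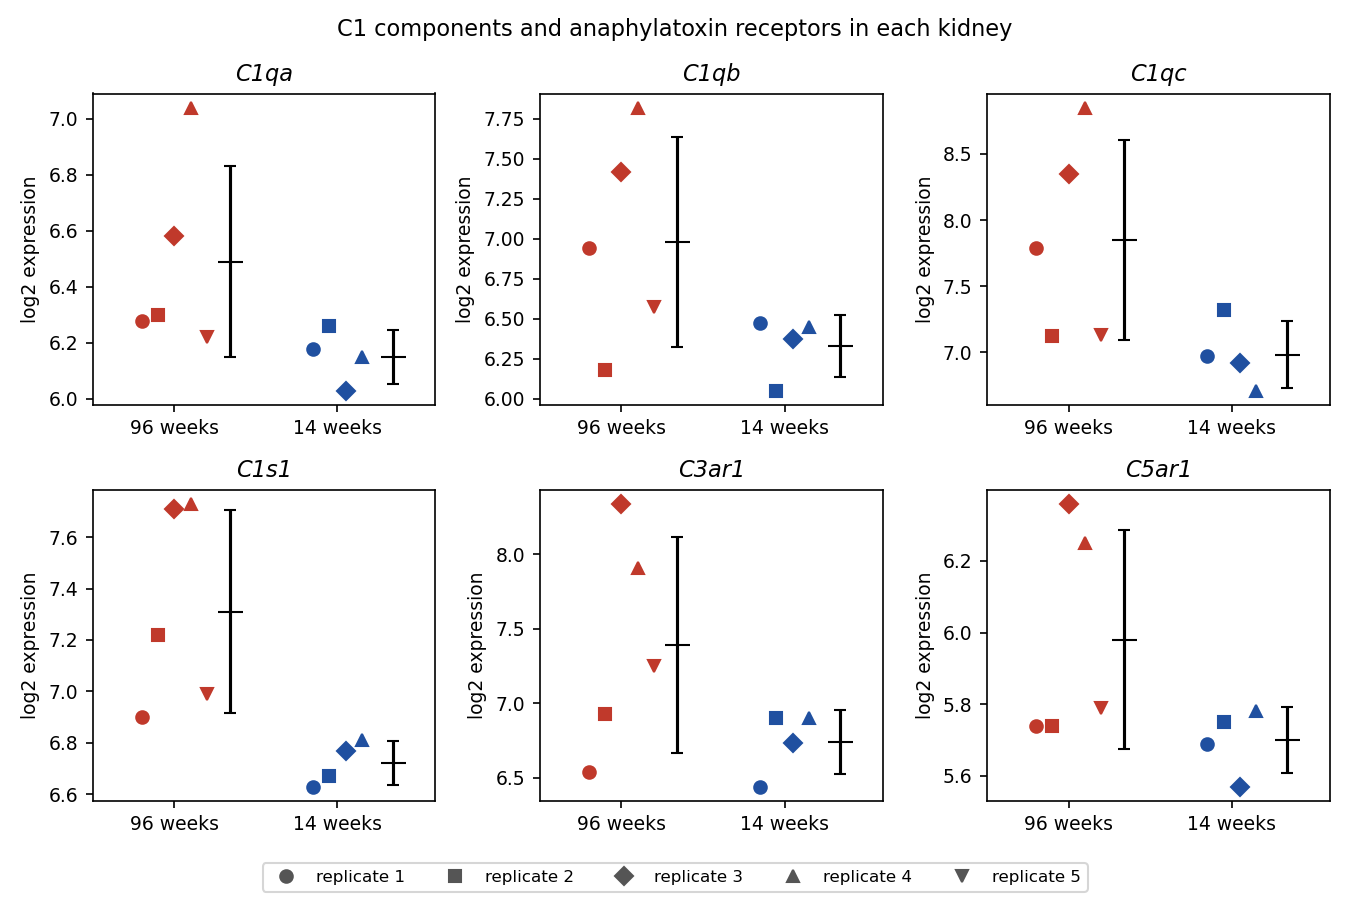
Log2 expression of C1qa, C1qb, C1qc, C1s1, C3ar1 and C5ar1 in each kidney (5 at 96 weeks, 4 at 14 weeks), with the mean and 1 SD beside the points. Replicates 3 and 4 at 96 weeks are the highest 2 kidneys in every panel, and C1s1 alone of the 6 shows no overlap between the ages.

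The receptors of the anaphylatoxins, small peptides released from the cascade that attract and activate myeloid cells, showed the same kidneys on top. C3ar1 had values of 6.54, 6.93, 8.34, 7.91 and 7.25 at 96 weeks, against 6.44, 6.90, 6.73 and 6.90 at 14 weeks. C5ar1 had values of 5.74, 5.74, 6.36, 6.25 and 5.79 at 96 weeks, against 5.69, 5.75, 5.57 and 5.78 at 14 weeks. Replicates 3 and 4 were highest in both genes. Replicate 5 also lay above the young range in C3ar1 (7.25), and the remaining old values lay within or close to that range. Neither gene passed, with log2 fold changes of 0.65 for C3ar1 (SE 0.317, limma adjusted p = 0.20) and 0.28 for C5ar1 (SE 0.138, limma adjusted p = 0.21). Most macrophage markers moved with these genes. All 10 markers were higher on average at 96 weeks and 3 passed (Csf1r, Lyz2 and Tyrobp), and their mean level was 7.48 to 8.53 in the old kidneys and 7.03 to 7.09 in the young ones. Centred on their mean over all arrays, the markers stood at 0.96 and 0.92 in replicates 3 and 4 at 96 weeks, at -0.09 to 0.18 in the other old kidneys and at -0.54 to -0.48 in the young ones. Without replicates 3 and 4 the log2 fold changes were 0.36 for C1qc, 0.23 for C1qb, 0.11 for C1qa, 0.17 for C3ar1 and 0.06 for C5ar1. Csf1r, the receptor that macrophages depend on, was lowest among old kidneys in replicate 3 (8.33). The part of macrophage number in these values was not tested.

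Cfb, factor B, the protease of the alternative pathway convertase, rose at 96 weeks and was among the brightest members. Its values were 10.94, 10.83, 10.91, 10.66 and 10.70 at 96 weeks, against 10.50, 10.48, 10.49 and 10.46 at 14 weeks. The 4 young kidneys were almost level and lay below every old one. The log2 fold change was 0.32 (SE 0.065, limma adjusted p = 0.021, permutation p = 0.016 by the exact two-sided test), or 1.25-fold. Cfb no longer passed without replicates 1, 3 or 4 at 14 weeks. Replicates 1 and 3 were highest, so that the order of the old kidneys was not that of C1q. Cfp, properdin, which stabilises the same convertase, had a log2 fold change of 0.04 (95% interval -0.15 to 0.24). C2, the classical counterpart of factor B and its neighbour in the major histocompatibility complex, had 7.27 ± 0.22 at 96 weeks (SD, n = 5) and 7.06 ± 0.138 at 14 weeks (SD, n = 4), with a limma adjusted p of 0.23. C4b, from the same region, had a log2 fold change of -0.07 (95% interval -0.33 to 0.19), and its near copy C4a of -0.11. Of the terminal components, C6 was dim (4.54 to 4.92 at 96 weeks and 4.79 to 4.90 at 14 weeks) and shared a single value, 4.81, in 5 arrays. C7 had values of 7.40, 7.29, 9.14, 7.90 and 7.81 at 96 weeks, against 7.12, 7.49, 7.48 and 7.23 at 14 weeks. Replicate 3 was again far above the other old kidneys, and C7 did not pass (log2 fold change 0.58, limma adjusted p = 0.25).

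The regulators split, with the C1 inhibitor higher and Cd55 lower at 96 weeks. Serping1, the C1 inhibitor, which blocks C1r and C1s and also plasma kallikrein, had values of 10.18, 10.27, 10.57, 10.62 and 10.29 at 96 weeks, against 9.86, 9.97, 10 and 9.98 at 14 weeks. The lowest old kidney exceeded the highest young one. The log2 fold change was 0.44 (SE 0.094, limma adjusted p = 0.027, permutation p = 0.016 by the exact two-sided test), or 1.35-fold. Serping1 no longer passed when any 1 of the 4 young kidneys was left out, or after repeated quantile normalization or cyclic loess. Fibroblast markers, of which 0 of 6 passed, had a mean level of 7.27 to 7.80 in the old kidneys and 7.35 to 7.44 in the young ones. Decorin (Dcn) and lumican (Lum), singled out after their values were seen, ranked the 5 old kidneys in the same order as Serping1, with log2 fold changes of 0.41 and 0.48 (limma adjusted p = 0.17 and 0.10). Pdgfra, Pdgfrb, Col1a1 and Col3a1 did not follow that order, and their log2 fold changes were 0.02, 0.20, -0.02 and -0.01. The part of fibroblasts in the Serping1 values was not tested. Cd55, the decay accelerating factor that dismantles convertases on cell surfaces, fell at 96 weeks. Its values were 6.95, 6.69, 7.09, 7.44 and 6.88 at 96 weeks, against 7.70, 7.62, 7.69 and 7.77 at 14 weeks. Every old kidney lay below every young one, and replicate 4 came closest. The log2 fold change of -0.68 (SE 0.125, limma adjusted p = 0.015, permutation p = 0.016 by the exact two-sided test) was the lowest of all members and left Cd55 at 0.62 of its young level. Cd55 passed in 16 of 18 other settings, Cfb in 12, Serping1 in 9 and Fgb in 9. Cd59a, which blocks the membrane attack complex, had 8.92 ± 0.192 at 96 weeks (SD, n = 5) and 9.05 ± 0.087 at 14 weeks (SD, n = 4), and did not pass (limma adjusted p = 0.38). Cfi, factor I, which cleaves C3b and C4b, had values of 6.92, 6.55, 8.04, 6.29 and 6.08 at 96 weeks, against 6.07, 6.24, 5.81 and 6.17 at 14 weeks. Replicate 3 was highest again and replicate 5 lay in the young range (log2 fold change 0.70, SE 0.334, limma adjusted p = 0.19).

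Of the 8 clotting genes on the list 0 passed. F2 (prothrombin), F5, F8 and F10 had log2 fold changes of -0.16, -0.08, 0.00 and -0.07, and their 95% intervals all lay between -0.42 and 0.15. F3, tissue factor, which starts clotting, had 6.91 ± 0.242 at 96 weeks (SD, n = 5) and 6.71 ± 0.141 at 14 weeks (SD, n = 4), with replicate 3 highest (7.32). Vwf, the platelet adhesion protein of endothelium, gave the same value of 6.14 in 7 of 9 arrays, all 5 old ones among them, so that its difference of -0.05 carries little information. F2r, the thrombin receptor, had values of 8.39, 8.55, 9.0, 8.53 and 8.66 at 96 weeks, against 8.24, 8.25, 8.27 and 8.38 at 14 weeks. The lowest old kidney exceeded the highest young one, and the log2 fold change was 0.34 (SE 0.106, limma adjusted p = 0.081, permutation p = 0.016 by the exact two-sided test). Kng1, the precursor of bradykinin and cofactor of contact activation, was dim (5.45 to 5.63 at 96 weeks and 5.27 to 5.45 at 14 weeks). Its log2 fold change was 0.18 (limma adjusted p = 0.088), and it passed after a repeated quantile normalization (0.26, limma adjusted p = 0.034) and after cyclic loess (0.27, limma adjusted p = 0.029). Its near copy Kng2 was bright, averaging 12.35 at 96 weeks and 12.11 at 14 weeks (log2 fold change 0.24, limma adjusted p = 0.087). Probes of the 2 genes may share signal.

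Anticoagulant genes of endothelium had positive differences that were small and did not pass. Tfpi, the inhibitor of tissue factor and factor X, had values of 8.19, 8.19, 8.53, 8.28 and 8.49 at 96 weeks, against 7.98, 8.13, 8.17 and 7.82 at 14 weeks. Procr, the endothelial protein C receptor, had values of 6.81, 6.92, 6.82, 7.01 and 6.77 at 96 weeks, against 6.65, 6.70, 6.73 and 6.62 at 14 weeks. In both genes every old kidney lay above every young one, and the limma adjusted p was 0.079 for each (log2 fold changes 0.31 and 0.19, permutation p = 0.016 by the exact two-sided test for each). Thbd, thrombomodulin, which turns thrombin towards protein C, had a log2 fold change of 0.22 (limma adjusted p = 0.26). Endothelial markers stood at 8.42 to 8.76 on average in the old kidneys and 8.43 to 8.59 in the young ones, and 1 of 7 passed (Eng). Of the plasminogen activators, Plau (urokinase), the brightest member, had 11.32 ± 0.27 at 96 weeks (SD, n = 5) and 11.08 ± 0.146 at 14 weeks (SD, n = 4), and Plat (tissue type) had 8.51 ± 0.162 at 96 weeks and 8.37 ± 0.053 at 14 weeks. Plau was lowest among old kidneys in replicate 3 (10.92), the kidney that led fibrinogen. Plaur, the urokinase receptor, had a log2 fold change of 0.14, and none of the 3 genes passed (limma adjusted p = 0.23, 0.27 and 0.43 for Plau, Plat and Plaur).

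The acute phase plasma proteins on the list other than fibrinogen, namely Saa3, Hp and A2m, did not pass. Saa3, an inducible serum amyloid A, lay at 4.39 to 4.90 at 96 weeks and 4.35 to 4.64 at 14 weeks, and Hp, haptoglobin, at 4.78 to 5.53 at 96 weeks and 5.36 to 6.0 at 14 weeks. Both overlapped between the ages and lay in the dimmest 30% of genes. A2m, a protease inhibitor, had 6.59 ± 0.106 at 96 weeks (SD, n = 5) and 6.29 ± 0.263 at 14 weeks (SD, n = 4), with a limma adjusted p of 0.12. In A2m the young replicates 3 and 4 gave the same 6.51 as the lowest old kidney.

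Other genes of these pathways were read in the same fit. Over all genes 4.31% rose and 2.4% fell. Of 26 other acute phase genes 4 rose (15.4%) and 0 fell, and the list median was 0.11. They were the iron carrier transferrin (Trf, log2 fold change 1.13, limma adjusted p = 0.0047), ceruloplasmin (Cp, 0.90, limma adjusted p = 0.0052), the oncostatin M receptor (Osmr, 0.77, limma adjusted p = 0.038) and Stat3, the transcription factor below that receptor and the interleukin 6 receptor (0.38, limma adjusted p = 0.045). For all 4 the ages did not overlap, and replicate 3 was the highest old kidney. Trf falls in the acute phase, while Cp rises. Serpina3n, a protease inhibitor, met the 1.5-fold threshold by a difference of 0.76 without passing (limma adjusted p = 0.081). So did the cytokine Il1b (0.90, limma adjusted p = 0.094), which was added after its values were seen. Of 27 other clotting genes 4 rose (14.8%) and 1 fell (3.7%), with a list median of -0.01. Those that rose were protein C (Proc, 0.34), its cofactor protein S (Pros1, 0.49), the carboxylase of vitamin K dependent factors (Ggcx, 0.38) and annexin A2 (Anxa2, 0.49), which binds plasminogen and its activator at the cell surface. The one that fell was factor VII (F7, log2 fold change -0.34, limma adjusted p = 0.045), a dim gene. The bright F13b, the carrier subunit of factor XIII, also had lower values in every old kidney and did not pass (-0.25, limma adjusted p = 0.052), and was singled out after its values were seen. Of 32 other complement genes 1 rose (3.12%), which was Cpn1 (the carboxypeptidase that trims anaphylatoxins, log2 fold change 0.50, limma adjusted p = 0.037), and 0 fell, with a list median of -0.02. Itgam and Itgb2, the chains of complement receptor 3 on myeloid cells, met the 1.5-fold threshold (0.68 and 0.74) and did not pass (limma adjusted p = 0.17 and 0.15).

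The members varied more among old mice than among young ones. The SD at 96 weeks was above that at 14 weeks in 34 members (89.5%, against 58.9% of all genes), and more than 2 times as large in 24 (63.2%, against 26.5% of all genes). Replicate 3 held the highest old value in 14 members (36.8%, against 18.5% of all genes) and replicate 4 in 13 (34.2%, against 19.4% of all genes). Replicate 3 led fibrinogen, C7, Cfi, both anaphylatoxin receptors, F2r and F3, and replicate 4 led C1q, C1s1 and Serping1. Replicate 1 held it in 4 members (22.6% of all genes), replicate 2 in 3 (25.5%) and replicate 5 in 3 (14.0%). Fewer arrays at 14 weeks were compared, and the SD of 4 values is itself imprecise.

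**Figure D4:**
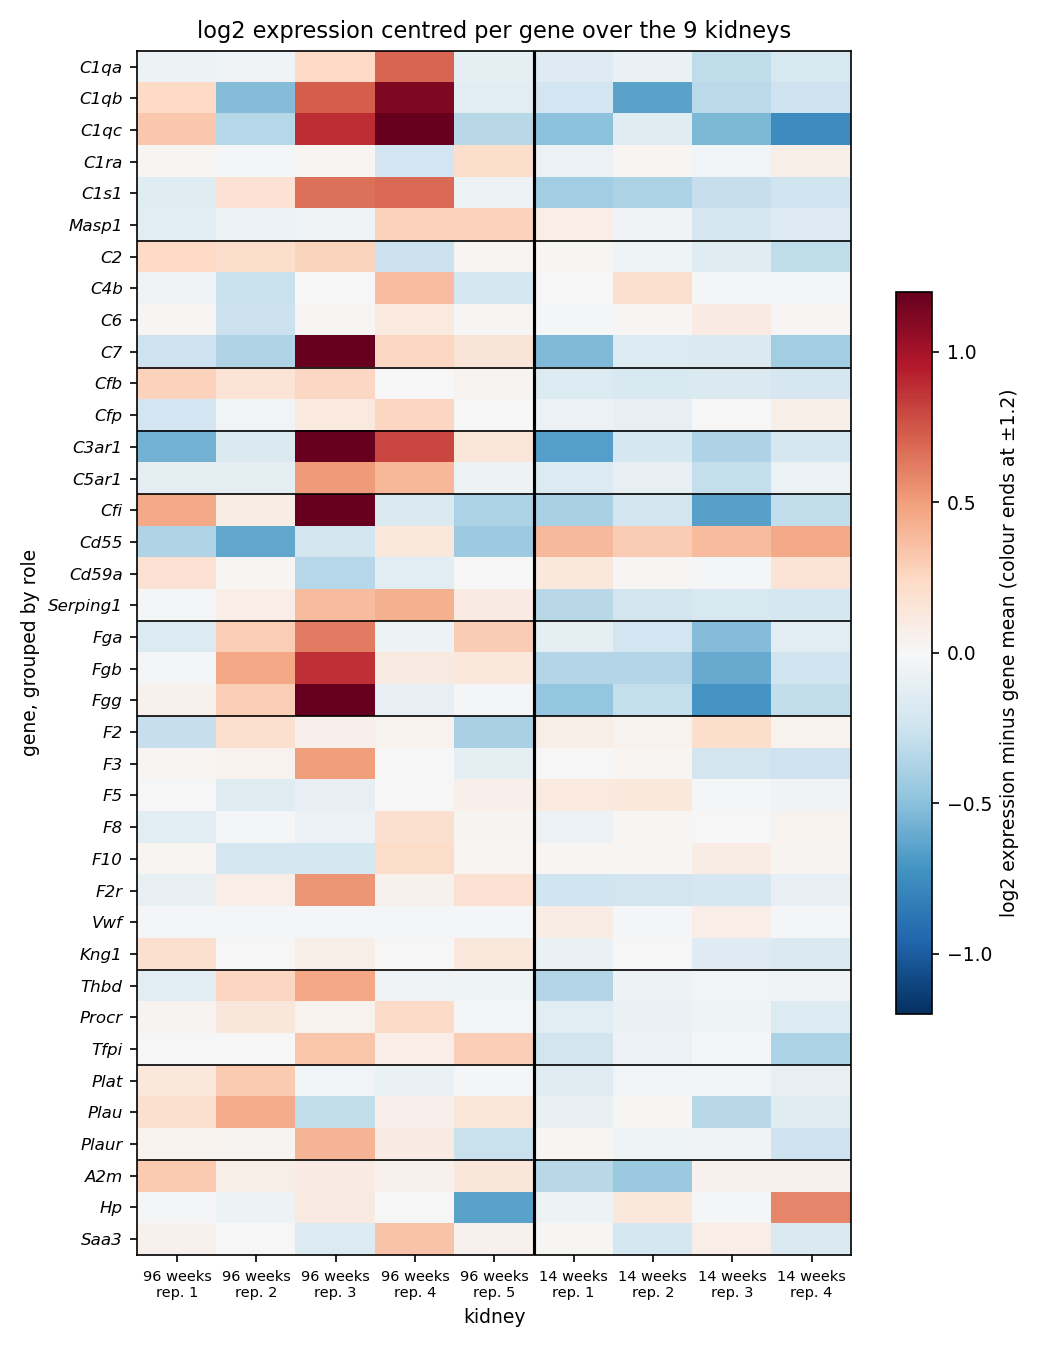
Log2 expression of the 38 members in each kidney, centred on the mean of each gene over the 9 arrays, with old kidneys left and young kidneys right of the black line and roles separated by thin lines. Replicates 3 and 4 at 96 weeks carry most of the strong red, and Cd55 is blue in 4 of 5 old kidneys.

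**Figure D5:**
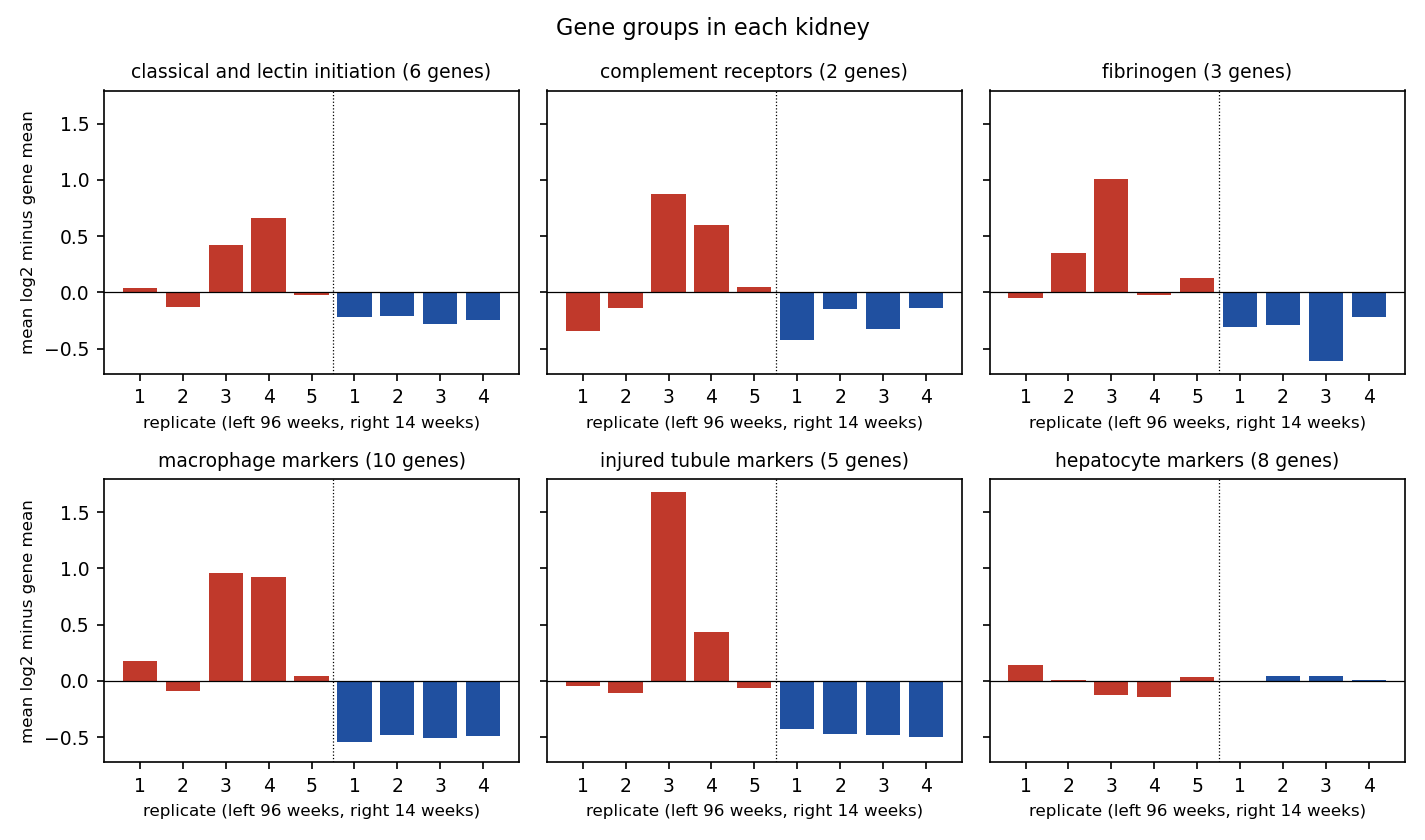
Mean log2 expression, centred per gene over the 9 arrays, of 3 member groups (top) and of 3 marker lists (bottom) in each kidney, with 96 weeks in red and 14 weeks in blue. Macrophage markers stand at 0.96 and 0.92 in replicates 3 and 4 at 96 weeks, injured tubule markers at 1.68 in replicate 3, and hepatocyte markers stay between -0.14 and 0.14.

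The arrays themselves were alike. The deposited log2 values had medians of 6.22 to 6.29, and pairs of arrays correlated at 0.978 to 0.992. Kidney identity was clear in both ages, with mean levels of 11.45 to 11.91 at 96 weeks and 11.71 to 11.76 at 14 weeks for proximal tubule markers. Neutrophil markers (4.71 to 4.84 at 96 weeks and 4.84 to 4.93 at 14 weeks) and platelet markers (5.43 to 5.65 at 96 weeks and 5.52 to 6.07 at 14 weeks) were dim, and 0 of 7 and 0 of 4 passed. T cell markers were highest in replicate 4 at 96 weeks (1.42 above their mean), and B and plasma cell markers stood at 0.24 to 1.81 in the old kidneys and at -1.21 to -1.1 in the young ones. Adipocyte and platelet markers were highest in replicate 2 at 14 weeks (0.27 and 0.45). Leaving out that kidney and replicate 3 at 96 weeks together, chosen after seeing the data, left 0 members that passed, and Cd55 had a log2 fold change of -0.73 (limma adjusted p = 0.052). That setting called 2.34% of all genes higher and 0.813% lower.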

How the data were processed

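Whole kidney RNA of 9 mice was hybridised to Affymetrix mouse gene arrays. The authors computed log2 expression values per probe set by RMA (robust multi-array average), quantile normalized, in Affymetrix Power Tools 1.12.0, and deposited 1 column per mouse. Which genome build the annotation used is not given in the sources used here. No background level per probe set was used, so a dim value may be an absent transcript. Of 35557 probe sets, 21789 had 1 gene symbol, 1621 several and 12147 none. Probe sets with 1 symbol were kept, and for the 999 genes with several the brightest stood for the gene. Members were matched by symbol, and C1s by synonym. Ages were compared with limma 3.58.1 (lmFit, eBayes) in R 4.3.3 over 19938 genes with Benjamini-Hochberg adjustment, and single genes with exact permutation tests over 126 splits in Python 3.11.15 with scipy 1.17.1. The fit was tested on simulated data. Genes given in full were members that passed, members past the 1.5-fold threshold, and all C1q and fibrinogen chains. C1s2, C4a and Kng2 were added as near copies after their values were seen. Members, lists, markers and settings were chosen with earlier results of these data known. Other settings were the methods' t-test, array weights, a filter on dim genes, repeated scaling, the mean over probe sets, a block for replicate number, and fits without some of the arrays. The number of arrays limits the precision. Sequences are from RefSeq (GRCm38.p6), whose promoter table matched 24 of 38 members.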

Additional observations from a re-analysis of the deposited data

Results flagged for a closer look

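Among 75 groups of 4 or 5 arrays (38 members at 2 ages, without Vwf at 96 weeks, whose values were all equal), 5 had a highest or lowest kidney whose gap to the nearest other kidney took up more of the group's range than Dixon's 95% critical value, and chance alone gives this in about 5% of groups, or 1 in 20. Fgg at 96 weeks was highest in replicate 3, at 9.54 with the next kidney at 8.31, and this gap was 0.750 of the range. F3 at 96 weeks was highest in the same kidney, at 7.32 with the next at 6.86, a gap of 0.743 of the range. Hp at 96 weeks was lowest in replicate 5, at 4.78 with the next at 5.36 (0.781). At 14 weeks C4b was highest in replicate 2, at 5.99 with the next at 5.79 (0.976), and Thbd was lowest in replicate 1, at 6.99 with the next at 7.28 (0.902).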

How the results depend on the processing

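Of the 4 genes that passed, Cd55 kept its direction in all 18 other settings, with log2 fold changes from -0.85 to -0.60, as did Cfb (0.27 to 0.36), Serping1 (0.30 to 0.49) and Fgb (0.56 to 0.79). Adjusted p-values reached 0.068 for Cd55, 0.079 for Cfb, 0.087 for Serping1 and 0.11 for Fgb over these settings. With the methods' t-test 0 members were higher and 0 lower after adjustment, against 3 and 1 with limma, and 1.37% of all genes were higher and 0.471% lower. At an unadjusted p under 0.05 the t-test gave 10 members higher and 1 lower, and limma 13 and 1. At the 1.5-fold threshold the t-test gave 2 members higher (C1s1 and Fgb) and 1 lower (Cd55). Among all 19938 genes it gave 196 higher and 61 lower. Same-numbered arrays of the 2 ages correlated at -0.037 to 0.076 in their deviations. No pairing by number was seen, but so few pairs cannot settle whether the numbers pair the mice. With the replicate number as a block, which uses replicates 1 to 4, 0 members were higher and 1 lower, and 7 were higher at the 1.5-fold threshold. Leaving out 1 array gave 0 to 4 members higher at the adjusted threshold, with 0 when a young replicate 1, 3 or 4 was dropped, 1 when young replicate 2 was, and 4 when old replicate 1 or 3 was. At the 1.5-fold threshold it gave 0 to 7 higher, 0 without replicate 3 at 96 weeks and 7 without replicate 2 at 96 weeks. The count lower was 1 in each. Without replicates 3 and 4 at 96 weeks 4 were higher at the adjusted threshold and 0 at the 1.5-fold threshold. Without replicate 3 at 96 weeks and replicate 2 at 14 weeks, chosen after seeing the data, 0 were higher, 0 lower, and 0 higher at the 1.5-fold threshold. Small differences changed sign, for C4b (0.01 after cyclic loess), C6 (0.04 after repeated quantile normalization, 0.04 after cyclic loess, and -0.08 to 0.01 with 1 array left out), F10 (0.01 after cyclic loess) and Cfp (-0.07 without replicates 3 and 4 at 96 weeks, -0.02 to 0.10 with 1 array left out, -0.01 without replicate 3 at 96 weeks and replicate 2 at 14 weeks). C1ra and F8, whose differences were 0.00 in the main fit, ranged from -0.05 to 0.08 and from -0.08 to 0.03 over these settings. The causes were not tested, and with fewer arrays fewer genes passed over all genes too. The filter on dim genes dropped 6 members.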
